A study of Homo sapiens with 6 samples.

Results

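The RGS genes examined here encode regulators of G-protein signaling. The set was RGS2, RGS3, RGS4, RGS5, RGS7, RGS10, RGS12, RGS16, RGS19 and RGS20, matched by gene symbol, and these 10 symbols took 11 rows of a table of 60748 genes because RGS5 was listed under a pair of identifiers. RGS4 was selected on its measured rise in LX-2FAP over LX-2Vector, and the other 9 symbols were listed with it as members of the same family. That difference is therefore given as a description, and no p-value is printed for any of the 10 genes.

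When a receptor of the 7-transmembrane class is activated, it loads the α subunit of a heterotrimeric G protein with GTP, and the α subunit and the βγ dimer then signal to effectors such as phospholipase C and adenylyl cyclase. RGS proteins bind the GTP-loaded α subunit through a shared RGS domain and speed the hydrolysis of GTP, which ends the signal. The family is divided by sequence into the R4, R7, R12 and RZ subfamilies. R4 proteins are mostly small and act on Gi and Gq, R7 proteins pair with the atypical β subunit Gβ5, R12 members range from the small RGS10 to the multidomain RGS12, and RZ proteins carry a string of cysteines that can be palmitoylated. Hepatic stellate cells, the vitamin A-storing pericytes of the liver sinusoid, receive G protein-coupled signals from thrombin, bradykinin, endothelin, angiotensin and sphingosine 1-phosphate.

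RNA was sequenced from LX-2 cells, an established human hepatic stellate cell line, in 3 libraries with the empty vector (LX-2Vector) and 3 libraries with stable overexpression of fibroblast activation protein α (LX-2FAP), a membrane-bound serine protease. Both lines carried a lentiviral GV367 backbone in which a ubiquitin promoter drives the insert and which also encodes EGFP and puromycin resistance, both were selected with puromycin, and all cells were cultured for 24 h in medium with serum. The methods speak of stable clones picked under puromycin and do not say how many clones made up each line, and nothing says that the 3 libraries of a group came from separate cultures, so the errors measure only the spread between these libraries. Total counts ran from 17355700 to 26352060 per library.

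The overexpressed gene was checked first. FAP (ENSG00000078098) had 1.86, 2.39 and 2.59 normalized counts-per-million (CPM) in LX-2Vector replicates 1, 2 and 3 and 620.1, 842.8 and 706.7 CPM in LX-2FAP replicates 1, 2 and 3, a log2 fold change of 8.33 (SE 0.133, edgeR quasi-likelihood adjusted p = 4.47e-16). The label of hepatic stellate cell was met in part. The summed level of 9 stellate or mesenchymal markers was 342 to 360 FPKM (fragments-per-kilobase-per-million) in LX-2Vector and 351 to 371 FPKM in LX-2FAP, most of it from VIM, the mesenchymal intermediate filament vimentin. LRAT, the retinyl ester synthase that defines quiescent stellate cells, had no count in any library, and DES, the filament desmin, had at most 1. ACTA2, the α smooth muscle actin gene, averaged 1.295 FPKM in LX-2Vector and 0.975 in LX-2FAP. COL1A2 averaged 0.109 and 0.0964 FPKM in the same order. COL1A1 averaged 34.3 and 25.5 FPKM, COL3A1 6.22 and 3.74, PDGFRB 3.51 and 2.65, and TAGLN 2.1 and 2.24. ACTA2 was thus below CD14 of the leukocyte or Kupffer cell list, at 1.93 and 1.80 FPKM. COL1A1, COL3A1, PDGFRB and TAGLN were above CD14 in both groups. The 5 hepatocyte markers summed to at most 0.15 FPKM in any library, the 7 epithelial or colon cancer markers to at most 1.33, the 5 endothelial markers to at most 1.82 and the 5 leukocyte or Kupffer cell markers to at most 2.77. Of 7 stellate or mesenchymal markers that could be tested, VIM rose in LX-2FAP (log2 fold change 0.13, adjusted p = 0.0372) and COL1A1 (-0.40, adjusted p = 0.0135), COL3A1 (-0.69, adjusted p = 0.00765) and PDGFRB (-0.38, adjusted p = 0.0269) fell, while among the endothelial markers VWF fell (-1.06, adjusted p = 0.0268). With each library left out in turn, VIM kept its call in 1 of 6 fits, COL1A1 in 3, COL3A1 in 5 and PDGFRB and VWF in 2 each. VIM also lost its call with library size alone (adjusted p = 0.0928) and COL1A1 by DESeq2 (0.0502), and limma-trend called none of the 5. The other markers that could be tested did not pass, and the part of these shifts in the RGS values was not tested.

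The first coding bases are shown for 4 members of the R4 subfamily because the codon after the start separates them. RGS4, RGS5 and RGS16 are known substrates of the Cys/Arg branch of the N-degron pathway, in which the initiator methionine is removed, the exposed cysteine is oxidized and arginylated, and the protein is ubiquitinated and degraded. RNA levels do not register that step. The bases were read from GENCODE release 29 transcripts (GRCh38), each run gives the first 30 coding bases 5′ to 3′, and capitals mark codon 2.
RGS4, chr1:163069485-163069514, plus strand: atgTGCaaagggcttgcaggtctgccggct
RGS5, chr1:163202806-163202835, minus strand: atgTGCaaaggacttgcagctttgccccac
RGS16, chr1:182604230-182604259, minus strand: atgTGCcgcaccctggccgccttccccacc
RGS2, chr1:192809072-192809101, plus strand: atgCAAagtgctatgttcttggctgttcaa
Codon 2 was TGC, for cysteine, in RGS4, RGS5 and RGS16 and CAA, for glutamine, in RGS2. RGS4 and RGS5 were identical at 23 of these 30 positions, RGS4 and RGS16 at 15 and RGS4 and RGS2 at 6. The principal transcripts of RGS3, RGS7, RGS10, RGS12 and RGS19 had no cysteine codon at this place.

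The members differed widely in level within the same cells. By mean FPKM in LX-2Vector, which divides by gene length, the order was RGS4, RGS10, RGS2, RGS19, RGS20, RGS12, RGS3, RGS5, RGS16 and RGS7. RGS5 stands here for its coding gene, and the second RGS5 row, at 0.668 FPKM, was left out. RGS4 stood at 25.0 FPKM (24.31 to 25.98 over the 3 libraries), 1.96 times RGS10 at 12.7 FPKM (12.62 to 12.96), and RGS2 followed at 10.5 FPKM (8.41 to 12.05). RGS19 (4.09 FPKM), RGS20 (3.49), RGS12 (3.03), RGS3 (2.60) and RGS5 (1.49) formed a middle group, in which each mean was at most 1.74 times the next. RGS16 lay far below at 0.195 FPKM and RGS7 at 0.0751 FPKM. In LX-2Vector no neighbours in this order overlapped in range. In LX-2FAP, RGS4 was again first, but the ranges overlapped between RGS10 and RGS2, RGS19 and RGS20, RGS12 and RGS3, and RGS16 and RGS7, so the order within these pairs was not separated by the spread between libraries. Counted in CPM, which is not divided by length, RGS12 and RGS3 moved up to the places behind RGS4, since their gene models of 13755 and 13793 bases are the longest of the set.

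**Figure D1:**
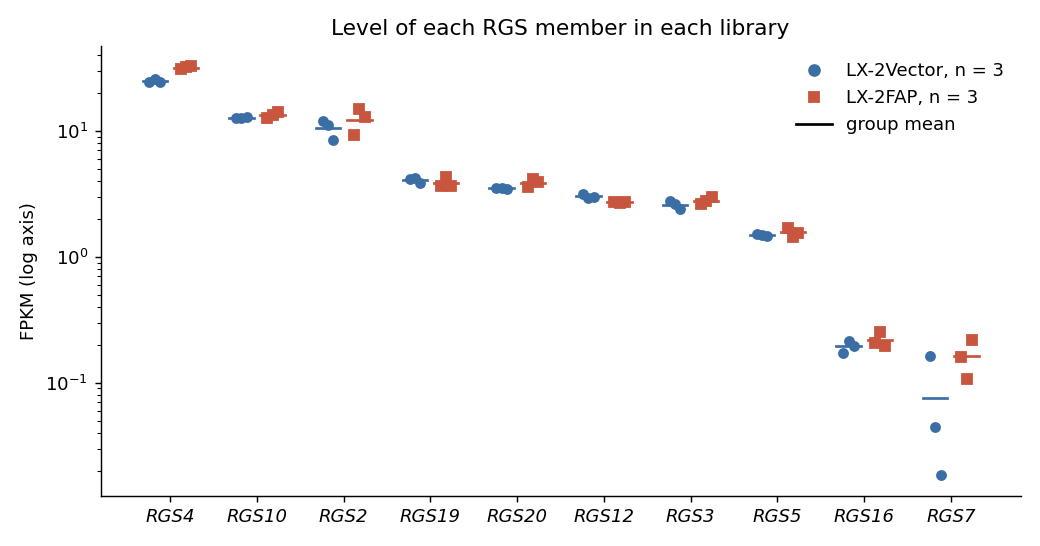
Level of each RGS member in each library in FPKM on a log axis, with LX-2Vector as circles, LX-2FAP as squares (n = 3 each) and group means as bars. RGS4 lies highest in every library and RGS16 and RGS7 lie below 1 FPKM. The second RGS5 row is left out.

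RGS4 made up the largest share of RGS transcript of any single gene. Summed over the 20 canonical RGS genes (RGS22 and the second RGS5 row left out), the level was 69.3 ± 2.80 FPKM in LX-2Vector and 78.8 ± 4.49 FPKM in LX-2FAP (SD, n = 3 each). RGS4 accounted for 34.6%, 36.4% and 37.2% of it in LX-2Vector and for 41.9%, 39.2% and 40.2% in LX-2FAP. The groups did not overlap, but RGS4 was selected on its rise in this contrast, so its larger share restates that rise. The 10 genes of the R4 subfamily together held 57.7% ± 1.21 in LX-2Vector and 62.0% ± 1.24 in LX-2FAP. The R12 share was 23.6% ± 1.27 and 21.1% ± 0.658, the RZ share 16.5% ± 0.425 and 15.03% ± 0.483, and the R7 share 2.20% ± 0.153 and 1.85% ± 0.424, in the same order of groups. Shares of a sum move together, so a larger share of 1 gene lowers the others. The R4 share includes the selected rise of RGS4, and nothing further is read from these shifts.

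**Figure D2:**
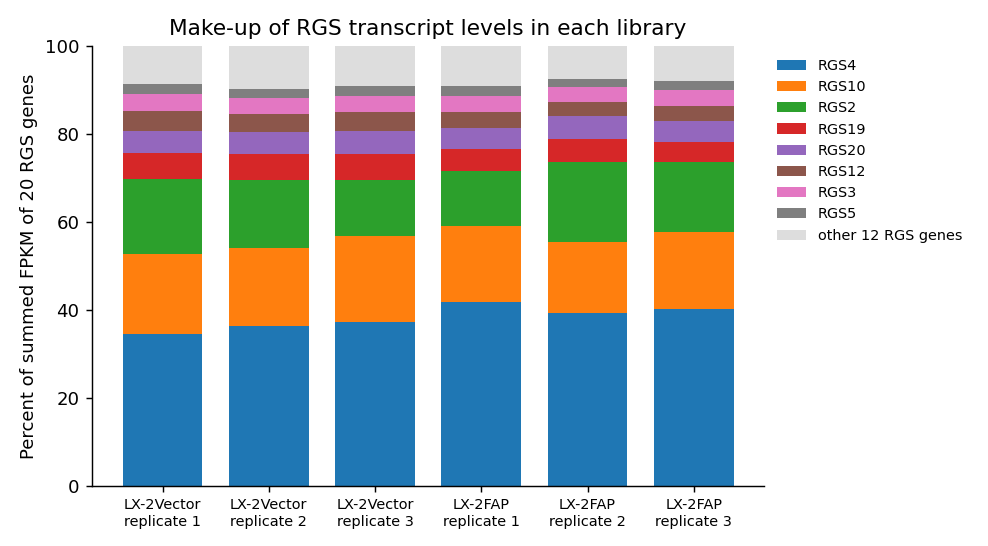
Percent of the summed FPKM of 20 canonical RGS genes held by each gene in each of the 6 libraries, as stacked bars from 0 to 100%. RGS4 is the lowest segment and runs from 34.6% to 37.2% in LX-2Vector and from 39.2% to 41.9% in LX-2FAP.

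RGS4, a small R4 protein that acts on Gi and Gq and is abundant in brain and in the heart, had the largest log2 fold change among the 10 tested rows. Its gene (ENSG00000117152, protein coding) lies at GRCh38 chr1:163068775-163076802 on the plus strand. It had 114.7, 121.5 and 115.2 CPM in LX-2Vector and 147.1, 153.7 and 156.0 CPM in LX-2FAP, from 2132 to 3527 counts per library. All 3 LX-2FAP libraries were above all 3 LX-2Vector libraries, and the gap between the groups was wider than the range within either. The means were 117.1 ± 3.78 and 152.3 ± 4.58 CPM (SD, n = 3 each), which is 30.1% higher in LX-2FAP, a log2 fold change of 0.38 (SE 0.043). RGS2 came out above it without LX-2FAP replicate 1 (0.42 against 0.41) and without LX-2Vector replicate 1 (0.369 against 0.365), as did the second RGS5 row without LX-2Vector replicate 3 (0.384 against 0.375). In bulk RNA, more cells with the transcript and more transcript per cell cannot be told apart.

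Over all 18275 tested genes, the edgeR test called 967 (threshold 0.05 on the adjusted p), which is 5.29%, with 469 higher (2.57%) and 498 lower (2.73%) in LX-2FAP. Library size alone in place of TMM, edgeR's default scaling, gave 239 higher and 809 lower, so that 22.8% of called genes were higher in place of 48.5%. The number called also rested on single libraries. Leaving out replicate 1 or 3 of LX-2Vector gave 391 or 395 calls. Leaving out replicate 1, 2 or 3 of LX-2FAP gave 1949, 129 or 26. RGS4 was selected on this contrast, so its calls in refits of the same libraries add no support. Its log2 fold change lay between 0.34 and 0.41 over the alternatives, and limma-trend on log2(FPKM + 1) or log2(FPKM + 0.1), which called 2 genes in all, did not call it.

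Of the 10 tested rows of the set, RGS4 alone was called, and since the choice of the set used this contrast, nothing is read from that count. Log2 fold changes were positive in 8 rows and negative in 2, with a median of 0.15 beside -0.01 over all tested genes. By size RGS4 ranked 425th of 18275 tested genes, and 20th of the 462 that were called higher with separate groups and a mean of 100 or more counts. RGS4 was thus a well measured gene with a modest fold change. The spread of its log2 CPM within groups was 0.045, smaller than the median of 0.072 over 11556 genes with a mean of 100 or more counts. Those genes were not matched to RGS4 in depth. Groups did not overlap, with LX-2FAP higher, for RGS4 and RGS20 (13.0% of all tested genes) and, with LX-2FAP lower, for RGS12 (13.4%).

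**Figure D3:**
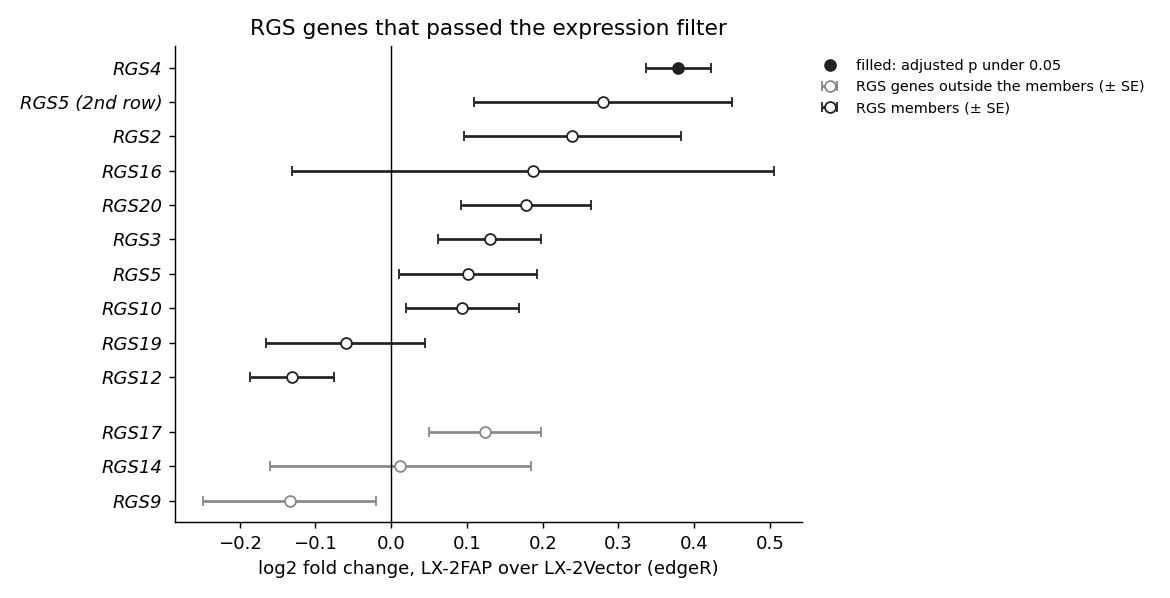
Log2 fold change of LX-2FAP over LX-2Vector with its SE for the 10 tested rows of the RGS set (black) and 3 other tested RGS genes (grey), from edgeR with 3 libraries a group. RGS4 at 0.38 is the only filled point, and RGS12 and RGS19 lie below 0 among the members.

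Among the other R4 genes, RGS2 stood out by its scatter. RGS2 (ENSG00000116741, chr1:192809039-192812283, plus strand) prefers Gq and is known as an early-induced gene. It had 25.1, 22.9 and 17.4 CPM in LX-2Vector and 19.4, 31.3 and 27.4 CPM in LX-2FAP. LX-2Vector replicate 3 was the lowest library and LX-2FAP replicate 1 the next lowest, and the groups overlapped. Its log2 fold change was 0.24 (SE 0.143). The spread of its log2 CPM within groups was 0.316, larger than in 99.5% of the 11556 genes with a mean of 100 or more counts, which were not matched to it in depth. RGS2 was called when LX-2FAP replicate 1 was left out, with a log2 fold change of 0.42, and with no filter on low counts. With no filter its log2 fold change stayed at 0.24, while its SE was 0.075 in place of 0.143.

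**Figure D4:**
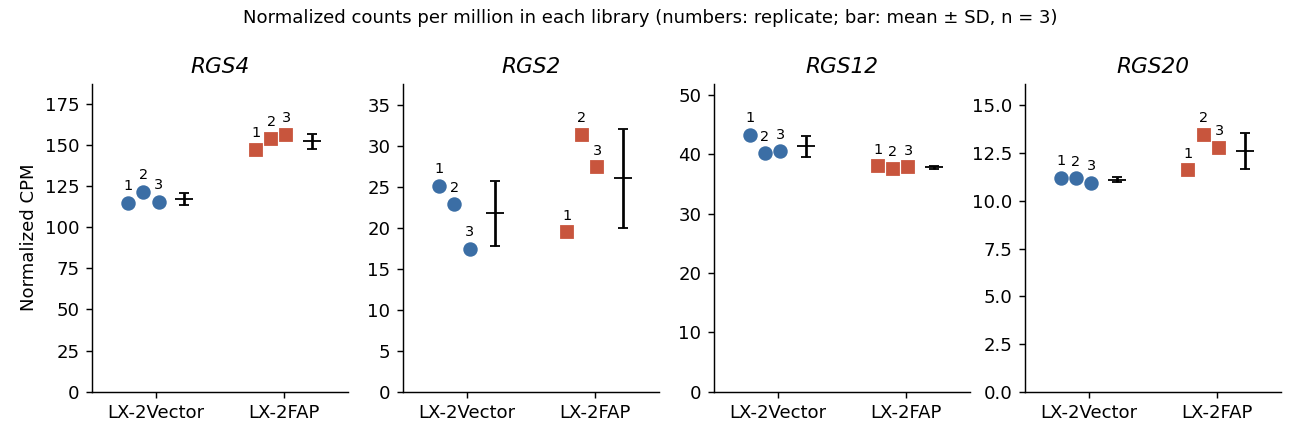
Normalized CPM of RGS4, RGS2, RGS12 and RGS20 in each library (points numbered by replicate, axes from 0) with mean ± SD, n = 3 each. RGS4, RGS12 and RGS20 show no overlap between groups, while RGS2 ranges from 17.4 to 25.1 CPM in LX-2Vector and from 19.4 to 31.3 CPM in LX-2FAP.

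RGS3 (ENSG00000138835, chr9:113444731-113597743, plus strand), which has long isoforms with added domains beside the RGS domain, had 38.0, 35.7 and 33.0 CPM in LX-2Vector and 36.4, 38.6 and 41.9 CPM in LX-2FAP. The groups overlapped, and the log2 fold change was 0.13 (SE 0.068). RGS16 (ENSG00000143333, chr1:182598623-182604408, minus strand), a small R4 protein, was close to the filter. It had 11, 9 and 10 counts in LX-2Vector and 12, 11 and 10 in LX-2FAP, and summed counts gave 0.460 CPM (95% exact Poisson interval 0.310 to 0.656) and 0.525 CPM (0.361 to 0.737). These intervals cover counting error only. At so few counts no difference could be seen.

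RGS5, a marker of pericytes, is the nearest RGS gene to RGS4 on the chromosome, 34.3 kb away on the opposite strand. Its coding gene (ENSG00000143248, chr1:163111121-163321791, minus strand) had 10.0, 9.69 and 9.64 CPM in LX-2Vector and 11.3, 9.73 and 10.4 CPM in LX-2FAP. All 3 LX-2FAP libraries lay within or above the LX-2Vector range, the groups overlapped, and the log2 fold change was 0.10 (SE 0.091). The other row with this symbol (ENSG00000232995, chr1:163244505-163321894, minus strand) is typed as antisense in the annotation. It lies on the same strand as RGS5, and 0.138% of its exon bases overlap the gene NUF2 on the other strand. It had 1.97, 2.56 and 2.68 CPM in LX-2Vector and 2.80, 3.23 and 2.67 CPM in LX-2FAP, with overlap and a log2 fold change of 0.28 (SE 0.17). The rows share 7.83% of the exon bases of the coding gene and 14.7% of those of the other, so reads there may be split or dropped and both values are uncertain.

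RGS7, the single R7 member of the set and a partner of Gβ5 best known from neurons, was at the limit of detection. RGS7 (ENSG00000182901, chr1:240775515-241357230, minus strand) had 11, 2 and 1 counts in LX-2Vector and 10, 5 and 12 in LX-2FAP and did not pass the filter. Summed over each group, 14 and 27 counts gave 0.215 CPM (95% exact Poisson interval 0.117 to 0.360) and 0.429 CPM (0.283 to 0.624). These intervals cover counting error only. They leave out the spread between libraries, which in LX-2Vector were at 0.416, 0.114 and 0.0470 CPM. LX-2Vector replicate 1 held 11 of the 14 counts, so the groups overlapped. Of its exon bases 9.32% overlap a gene on the other strand, and strand use in counting was not stated. Of 5 partner genes of the R7 subfamily, GNB5 (Gβ5) and RGS9BP could be tested and neither was called by edgeR or DESeq2 (1 had an unadjusted p under 0.05), at log2 fold changes of -0.13 (SE 0.05, adjusted p = 0.152) and -0.22 (SE 0.206, adjusted p = 0.609).

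The R12 members differed in sign. RGS10 (ENSG00000148908, chr10:119499828-119542708, minus strand), a small protein made of little more than the RGS domain, had 16.1, 15.9 and 16.4 CPM in LX-2Vector and 16.2, 17.2 and 18.2 CPM in LX-2FAP, with a log2 fold change of 0.09 (SE 0.075). Its LX-2FAP replicate 1 lay inside the LX-2Vector range. RGS12 (ENSG00000159788, chr4:3293028-3439913, plus strand), a large scaffold with PDZ, Ras-binding and GoLoco domains, was the reverse in sign. It had 43.3, 40.2 and 40.5 CPM in LX-2Vector and 38.0, 37.6 and 37.8 CPM in LX-2FAP, so that every LX-2FAP library was below every LX-2Vector library by a small margin. Its log2 fold change was -0.13 (SE 0.055), and it was called in none of the fits.

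So did the RZ members. RGS19 (ENSG00000171700, chr20:64073181-64079988, minus strand), which was named GAIP for its binding to Gαi, had 8.44, 8.55 and 7.71 CPM in LX-2Vector and 7.43, 8.90 and 7.50 CPM in LX-2FAP. LX-2FAP held both the highest and the lowest library, and the log2 fold change was -0.06 (SE 0.105). RGS20 (ENSG00000147509, on the plus strand of chromosome 8, 53851808 to 53959303), a regulator of Gz, had 11.2, 11.2 and 11.0 CPM in LX-2Vector and 11.6, 13.5 and 12.8 CPM in LX-2FAP. The groups did not overlap, the lowest LX-2FAP library was 11.6 CPM against a highest LX-2Vector library of 11.2 CPM, and the log2 fold change was 0.18 (SE 0.086).

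The remaining RGS genes gave little signal in LX-2 cells. Of 11, 3 could be tested and 0 were called by edgeR, with 0 at an unadjusted p under 0.05 and 0 called by DESeq2 as well. RGS17, an RZ protein, had the highest level of them at 3.84 FPKM in LX-2Vector, with a log2 fold change of 0.12 (SE 0.074, adjusted p = 0.347), and RGS9, the R7 protein of photoreceptors and striatum, one of -0.13 (SE 0.114, adjusted p = 0.536). RGS14 was the remaining one, and its sign changed with the scaling. RGS8, RGS13 and RGS21 had no count in any library.

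The 3 genes whose log2 CPM profile over the 6 libraries was most like that of RGS4, by Euclidean distance after centring each gene on its mean, were CCND1 (distance 0.082), NAV3 (0.087) and TMEM200A (0.096), among 11555 genes with a median distance of 0.488. CCND1, which encodes cyclin D1, had 739.6, 736.3 and 742.6 CPM in LX-2Vector and 909.8, 986.1 and 986.9 CPM in LX-2FAP. NAV3, a microtubule-binding protein, had 205.4, 209.9 and 197.9 CPM in LX-2Vector and 244.3, 264.5 and 260.6 CPM in LX-2FAP. Like RGS4, each was higher in LX-2FAP, with replicate 1 the lowest of its LX-2FAP libraries. The genes were picked by likeness to RGS4 over these libraries, so both traits follow from the choice. The profiles share libraries and scaling, and the likeness is a description over 6 libraries.

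On chromosome 1, which holds 5 of the 10 members and 10 of the 20 canonical RGS genes, RGS4 lies among genes that did not all go its way. Within 500 kb on either side the annotation had 6 protein-coding neighbours. UAP1, an enzyme of UDP-N-acetylglucosamine synthesis, 468.9 kb away, rose with a log2 fold change of 0.17 (SE 0.044, adjusted p = 0.0372), and NUF2, a kinetochore gene 189.8 kb away that overlaps the RGS5 locus on the other strand, rose by 0.22 on the log2 scale (SE 0.047, adjusted p = 0.0186). DDR2, a collagen receptor (-0.04, SE 0.043, adjusted p = 0.684), and HSD17B7 (-0.14, SE 0.068, adjusted p = 0.251) did not pass the test, CCDC190 had too few counts to test, and RGS5 is given above. When each library was left out in turn, UAP1, whose call was also lost with library size alone, kept it in 2 of 6 fits (adjusted p up to 0.195) and NUF2 in 3 of 6 (up to 0.149).

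The sequence just before annotated start sites is shown for the R4 genes because one RGS4 start carries a TATA box core. The runs are the 30 bases before a start in RefSeq (GRCh38.p14), 5′ to 3′ on the gene's strand, with the motif TATAAA in capitals.
RGS4, chr1:163069331-163069360, plus strand: TATAAAagagacccctacaggcttagcagg
RGS2, chr1:192809009-192809038, plus strand: cctcataaatgctgcgacgcacgcccagcc
RGS16, chr1:182604390-182604419, minus strand: gatttaaagcagcggccgctcagtctgggc
RGS5, chr1:163202917-163202946, minus strand: ctatatatacctcaggaggaaaggcatccc
RGS4 has 4 start sites in this source, and RGS5 has 2, of which 1 each is shown. TATAAA, searched on both strands of the 300-base windows (250 bases before to 50 after a start), was in 11.5% of 35116 windows of all genes and in 2 of the 26 windows of 9 matched members, 1 of RGS3 and 1 of RGS4. Read on the gene's strand in the last 100 bases before a start, TATAAA was in 3.51% of all windows. Among the 9 matched members it was in 1 window, of RGS4, where it begins 30 bases before the start. Only this exact run was searched, so related runs, such as tatatata in the RGS5 bases shown, were not counted. The cyclic AMP response element TGACGTCA (1.85% of windows, both strands) and the EGR1 motif GCGTGGGCG (0.795%, both strands) were in no member window. None of these motifs contains another. A match is a run of letters and not a shown binding site, and which start site LX-2 cells use was not measured by gene counts.

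Related genes outside the set were then examined from 10 lists. These include the remaining RGS genes and the R7 partners given above, and the RGS-homology proteins. Of 135 symbols, 94 could be tested and 9 were called, 3 higher and 6 lower, which is to be read against 5.29% of all tested genes. The median log2 fold change was -0.04 over the lists and -0.01 over all tested genes. The count rested on single libraries as well, with 1, 4 and 1 calls when replicate 1, 2 or 3 of LX-2Vector was left out, and 16, 1 and 0 when replicate 1, 2 or 3 of LX-2FAP was (in the last, 17 had an unadjusted p under 0.05). GNG12 lost its call with library size alone and ARRB1 by DESeq2, and limma-trend called none of the 94 (28 and 29 had an unadjusted p under 0.05 with the pseudocounts 1 and 0.1).

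Of 9 RGS-homology proteins, which carry a related domain, all were tested, 1 rose and 1 fell. SNX13, a sorting nexin, rose from 53.6 ± 0.391 to 61.9 ± 1.44 CPM (log2 fold change 0.21, adjusted p = 0.0226). ARHGEF1, a RhoA exchange factor driven by Gα12 and Gα13, fell from 62.5 ± 1.87 to 54.4 ± 1.95 CPM (-0.20, adjusted p = 0.032). AKAP10 and ARHGEF11 had the highest levels of the list, at 14.4 and 10.6 FPKM in LX-2Vector, and were not called (adjusted p = 0.792 and 0.72). With each library left out in turn, SNX13 kept its call in 2 of 6 fits (adjusted p up to 0.137) and ARHGEF1 in 1 of 6 (up to 0.165).

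None of 13 tested Gα genes was called by edgeR, although 6 had an unadjusted p under 0.05. DESeq2 called 1, GNAQ (log2 fold change 0.14, adjusted p = 0.039), which edgeR put at 0.13 (adjusted p = 0.0645) and which is named after its values were seen. Their median log2 fold change was -0.11 by edgeR. GNAI2, a Gi subunit of the kind RGS4 and RGS19 act on, was the most abundant at 44.0 FPKM in LX-2Vector, with a log2 fold change of -0.11 (SE 0.045, adjusted p = 0.144), followed by GNA13 at 37.7 FPKM (0.05, SE 0.039, adjusted p = 0.473). Of 11 tested Gβ and Gγ genes 2 rose and none fell. GNG11 went from 125.3 ± 4.69 to 149.4 ± 5.51 CPM (log2 fold change 0.25, adjusted p = 0.00815) and GNG12 from 316.1 ± 13.5 to 353.4 ± 11.8 CPM (0.16, adjusted p = 0.0405). GNG11 lost its call without LX-2FAP replicate 3 (adjusted p = 0.0932) and held it in the other 5 fits with a library left out, and GNG12 held its call only without LX-2FAP replicate 1 (up to 0.244 in the others). GNB1, at 79.0 FPKM the most abundant gene of the lists, had a log2 fold change of 0.01 that took the opposite sign with library size alone.

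Of 37 genes for receptors coupled to Gi or Gq, 22 could be tested, 2 fell and none rose. Signs were positive for 10 and negative for 12, with a median log2 fold change of -0.08 and a range from -0.86 to 0.52. F2RL1, the protease-activated receptor PAR2, had 0.712, 0.649 and 0.859 FPKM in LX-2Vector and 0.522, 0.374 and 0.289 FPKM in LX-2FAP (log2 fold change -0.86, SE 0.224, adjusted p = 0.0381). BDKRB2, the bradykinin B2 receptor, had 1.95, 1.89 and 2.38 FPKM in LX-2Vector and 1.58, 1.098 and 1.58 FPKM in LX-2FAP (-0.50, SE 0.124, adjusted p = 0.0309). Neither receptor overlapped between groups. F2R, the thrombin receptor PAR1 and the receptor gene with the highest level at 40.1 FPKM in LX-2Vector, had a log2 fold change of -0.28 (SE 0.081, adjusted p = 0.0585), and its LX-2FAP replicate 1 was near the controls at 37.7 FPKM. S1PR3, for sphingosine 1-phosphate, had -0.09 (SE 0.046, adjusted p = 0.287). With each library left out in turn, F2RL1 kept its call only without LX-2FAP replicate 1 (adjusted p up to 0.216) and BDKRB2 only without LX-2Vector replicate 2 or LX-2FAP replicate 1 (up to 0.125). F2R passed the test without LX-2FAP replicate 1 (0.00194) and was at most 0.244 in the other 5. It also passed with library size alone (0.0408), with no filter on low counts (9.67e-07) and with a replicate block (0.0439), and not by DESeq2 (0.233). With no filter the log2 fold change of F2R stayed at -0.28, while its SE was 0.047 in place of 0.081. DESeq2 called BDKRB2 and gave F2RL1 no adjusted p.

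Downstream of the receptors, 1 of 7 receptor kinase and arrestin genes and 2 of 15 tested effector genes fell and none rose. ARRB1, β-arrestin 1, went from 54.0 ± 1.89 to 47.1 ± 2.22 CPM (log2 fold change -0.20, adjusted p = 0.0476). PLCB3, a phospholipase C that Gq activates, went from 101.3 ± 3.90 to 85.6 ± 9.21 CPM (-0.24, adjusted p = 0.0386), and ADCY6, an adenylyl cyclase that Gi inhibits, from 65.2 ± 4.30 to 56.4 ± 3.01 CPM (-0.21, adjusted p = 0.0474). The sign was negative for 13 of the 15 effectors and 6 of the 7 kinases and arrestins, with medians of -0.10 and -0.05. Over all tested genes it was negative for 9685 of 18275. GRK2 and PRKCA, the most abundant of their lists, were not called (adjusted p = 0.234 and 0.248). With each library left out in turn, ARRB1 and PLCB3 kept their calls only without LX-2FAP replicate 1 (adjusted p up to 0.244 and 0.193), and ADCY6 only without LX-2Vector replicate 2 or LX-2FAP replicate 1 (up to 0.25).

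None of 5 tested chaperone and activator genes of G proteins was called by edgeR or DESeq2, with 1 at an unadjusted p under 0.05, and RIC8A, an α subunit chaperone, and GPSM1 had adjusted p-values of 0.602 and 0.175. None of the 7 genes of the N-degron pathway that degrades RGS4, RGS5 and RGS16 protein was called by edgeR, with 2 at an unadjusted p under 0.05. Their log2 fold changes lay between -0.02 and 0.15. METAP2, a methionine aminopeptidase, had 33.0, 34.1 and 31.7 FPKM in LX-2Vector and 34.1, 36.7 and 36.2 FPKM in LX-2FAP (log2 fold change 0.15, SE 0.045, adjusted p = 0.0702), and was called by DESeq2 (0.0469), the 1 call of that tool in the list, and by edgeR when LX-2FAP replicate 1 was left out (0.0233). UBR4, a recognition component of the pathway, was at 29.5 FPKM in LX-2Vector and was not called (adjusted p = 0.77).

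**Figure D5:**
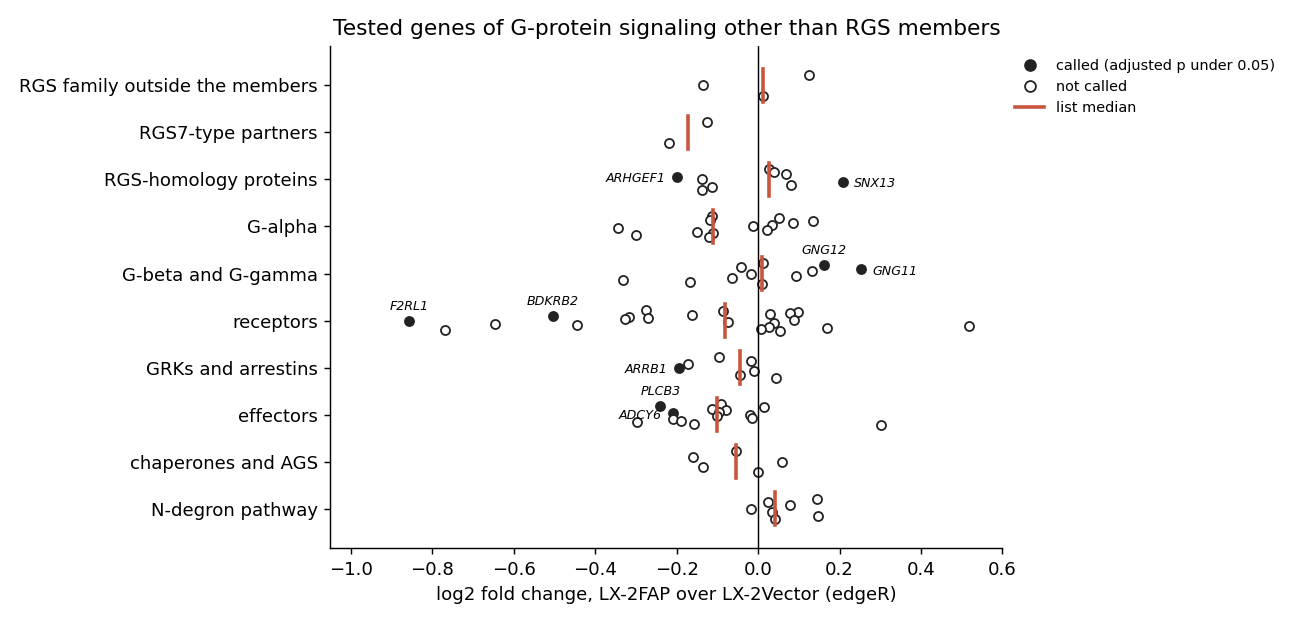
Log2 fold change of LX-2FAP over LX-2Vector for each of the 94 tested genes of the 10 lists, 1 row of points a list, with called genes filled and named and the list median as a bar. GNG11, GNG12 and SNX13 are the filled points above 0, and the receptors spread widest, from -0.86 to 0.52.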

How the data were processed

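RNA-seq of LX-2 cells was used in 6 libraries, 3 LX-2Vector and 3 LX-2FAP, grouped by sample title. The authors aligned reads with HISAT2 and counted them per gene with featureCounts, and the submitters' processing notes also name HISAT2 2.0.5, featureCounts 1.5.0-p3, DESeq2 1.16.1, edgeR and the build hg18. The authors deposited whole-number counts that were not normalized, together with FPKM, for which the authors divided by gene length and depth. GENCODE release 29 (GRCh38) held 58337 of the 60605 Ensembl identifiers and gave the coordinates, and 60.7% of gene lengths equalled the merged exon length there. The notes' build and these identifiers were not reconciled. The labels give RNA depleted of ribosomal RNA, and the methods name poly(A) isolation. Rows with no Ensembl identifier numbered 143 and held 0.112% of counts. They were named as unannotated loci and stayed in.

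Counts were tested with the 2-sided quasi-likelihood test of edgeR 4.0.16 (R 4.3.3, TMM, minimum count 10, minimum total 15) with no covariate and Benjamini-Hochberg adjustment over 18275 genes, and the adjusted p of a called gene was under 0.05. CPM used the normalized library sizes, and log2 CPM for profiles used a prior count of 2. The test was checked on simulated data. The members and the gene lists were chosen with earlier results of these data known. Genes named are the members, FAP, in each list the called genes and the 2 of highest FPKM, and the 3 profiles nearest to RGS4. Neighbours of RGS4, RGS14, GNAQ and the called markers were added after their values were seen.

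Alternatives were DESeq2 1.42.0, its size factors, library size alone, other filters, limma-trend (limma 3.58.1) on log2(FPKM + 1) and log2(FPKM + 0.1), a replicate block, other thresholds and each library left out in turn. Summing both RGS5 rows was chosen after seeing the data. Where 1 library was left out, the fit pooled the spread over 5. With 3 against 3, an exact permutation test of 1 gene cannot pass 0.05, so none was run. Of the symbols of the set, 9 matched the RefSeq promoter table. No batch or date is in the labels.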

Additional observations from a re-analysis of the deposited data

How the results depend on the processing

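The counts of calls depended on the test and on single libraries. Every tested member kept the sign of its log2 fold change in each alternative in which it could be tested. Genes called numbered 967, and 1606 with no filter, 2 by limma-trend with either pseudocount, 116 at an adjusted p under 0.01, 1992 under 0.1, and 26 to 1949 with 1 library left out. The genes called higher, 469, became 239 with library size alone, 1 by either limma-trend and 14 to 892 with 1 library left out, and the genes called lower, 498, became 809, 1 and 12 to 1057, with 929 under no filter. DESeq2 put 60.4% of its calls on the higher side, in place of 48.5%. Members called, 1, became 2 with no filter (RGS2 and RGS4), 0 by either limma-trend (1 had an unadjusted p under 0.05), and 1 to 2 with 1 library left out. Pathway genes called, 9, became 0 by either limma-trend, 1 at an adjusted p under 0.01, 15 under 0.1 and 0 to 16 with 1 library left out. The log2 fold change of FAP ran from 8.17 to 8.45 with 1 library left out and was 6.27 on the log2(FPKM + 1) scale. Limma-trend gave 3662 and 3638 genes at an unadjusted p under 0.05. The cause of these moves was not tested.

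Genes near 0 changed sign. With 1 library left out, ARHGEF11 ran from -0.00036 to 0.083, GNB1 from -0.014 to 0.047, GRK6 from -0.048 to 0.036, RIC8A from -0.076 to 0.00079, RGS14 from -0.06 to 0.097 and UBR4 from -0.002 upward. With library size alone, log2(FPKM + 1) and log2(FPKM + 0.1), in that order, UBR4 gave -0.0049, -0.0048 and -0.005, GNB1 -0.017, -0.016 and -0.016, AKAP10 -0.0021, -0.0022 and -0.0024, and RGS14 -0.016, -0.0024 and -0.007.

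Same-numbered libraries were the most alike across the groups for replicate 2 but not for replicates 1 and 3. Deviations from a group mean cancel over its libraries, so correlations of both signs must occur. Deviations from the group means of same-numbered libraries correlated at -0.136, 0.199 and -0.077 over 11556 genes. The largest correlations in size were between different numbers. LX-2Vector replicate 3 gave 0.376 with LX-2FAP replicate 1 and -0.347 with LX-2FAP replicate 2, and the cause was not tested. A replicate block in the model gave 975 calls, 465 higher and 510 lower, with RGS4 the only member called. F2R passed the test under the block (adjusted p = 0.0439) and F2RL1 did not. Depth limits RGS7 and RGS16, at 14 to 33 counts a group.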
